A study of Mus musculus with 2 samples.

Results

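Runx1, Runx2 and Runx3 are the 3 genes of the Runx family of transcription factors, and Cbfb encodes the partner protein that all of them share. These 4 genes were taken by symbol from the 32285 genes measured, and each was followed over all 1857 cell barcodes of the series. A barcode is the tag given to the contents of 1 droplet, and a UMI is a tag that counts 1 captured RNA molecule. The series holds 2 10x Chromium libraries, replicate 1 and replicate 2, which form 1 group: blood of wild type mice that had received burn/tenotomy, a skin burn together with a cut tendon. The blood had been passed through the iChip, a microfluidic sorter, and the labels describe the material as cMPCs and blood cells. No uninjured or unsorted group was analysed here, and the age of the mice, the time after injury and any pooling of animals are not stated in the labels. The comparisons below are therefore between kinds of barcode within the same libraries. Nothing in the labels says whether the libraries came from separate animals, so their spread may be technical.

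Runx proteins bind DNA through a conserved domain, and binding is strengthened by Cbfb, which does not contact DNA itself. Runx1 is needed for the emergence of blood stem cells and acts in B cell, T cell, myeloid and platelet lineages. Runx2 is best known as the master regulator of bone-forming osteoblasts and of maturing cartilage cells, and it also acts in plasmacytoid dendritic cells, the interferon-producing cells marked by Siglech. Runx3 acts in cytotoxic T cells, natural killer cells and some dendritic and sensory nerve cells. Heterotopic ossification, bone formed in soft tissue, can follow burn/tenotomy.

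On the mm10 assembly with GENCODE M21 annotation, all 4 are protein-coding genes. Runx1 (ENSMUSG00000022952) lies on the minus strand at chr16:92601466-92826149, and Runx2 (ENSMUSG00000039153) on the minus strand at chr17:44495987-44814797. Runx3 (ENSMUSG00000070691) lies on the plus strand at chr4:135120652-135177990, and Cbfb (ENSMUSG00000031885) on the plus strand at chr8:105170674-105217989. RefSeq promoter windows (GRCm38.p6, 250 bases before to 50 after each start) were found for all 4 genes. They are shown because the Runx genes share a sequence there that contains the letters their own proteins bind. In the 30-base stretches below, written 5′ to 3′ on the gene's strand, capitals mark the longest run of letters found in a window of every Runx gene, 18 bases.
Runx1, chr16:92826025-92826054, minus strand: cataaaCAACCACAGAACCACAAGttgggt
Runx2, chr17:44814583-44814612, minus strand: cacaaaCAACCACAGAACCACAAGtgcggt
Runx3, chr4:135120503-135120532, plus strand: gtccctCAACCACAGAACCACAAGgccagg
The run begins at position 26 from the RefSeq start in Runx1, at position 21 in Runx2 and at position -136 in Runx3. Searched on both strands, it occurred in 4 of 32851 promoter windows (0.0122%). The other window belongs to Gm16225, and it overlaps the Runx3 window on the opposite strand. The run holds 2 copies of ACCACA, the reverse complement of the Runx core motif TGTGGT. That motif, on either strand, was present in 5506 of the windows (16.8%), and 595 windows (1.81%) held at least 2 matches. The Runx2 window held 3 matches, while the Cbfb window and the second windows of Runx1 and Runx3 held 0. These are matches of letters, and no binding was measured here.

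Replicate 1 had 1008 barcodes and 3967318 UMIs, and replicate 2 had 849 barcodes and 3329292 UMIs. The libraries shared 0 barcodes, and haemoglobin took 73.5% and 75.1% of their UMIs. Barcodes were sorted by marker lists that contain no Runx gene and not Cbfb. A leukocyte-marker barcode had at least 3 UMIs from at least 2 genes of the B cell, T cell, natural killer, monocyte or macrophage, plasmacytoid dendritic cell and neutrophil lists. There were 89 in replicate 1 and 16 in replicate 2. The contrast was made of 35 and 31 mesothelial-or-collagen barcodes, defined in the same way from genes of the serosal lining and of connective tissue. Median depth was 1508 and 1833.5 UMIs in leukocyte-marker barcodes, and 2082 and 2645 in mesothelial-or-collagen ones. The remaining barcodes were platelet-marker (55), haemoglobin-rich (862), mainly mitochondrial (639) or unclassed (130). Ptprc, the pan-leukocyte surface protein CD45, was found in 69 of 89 and 6 of 16 leukocyte-marker barcodes and in 1 of 66 mesothelial-or-collagen ones. Replicate 2 thus contributed few leukocyte-marker barcodes, and fewer of them carried Ptprc. All 11 mesothelial markers and 9 of 10 collagen markers were found in the contrast class, where Cd3e, Ebf1 and Siglech were at 0 and Csf1r had 9 UMIs. Doublets were not called or removed here.

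Across both libraries Runx1 gave 182 UMIs in 76 barcodes, Cbfb 56 in 34, Runx2 59 in 12 and Runx3 13 in 8. At least 1 of the 4 was found in 103 barcodes. Most carriers held a single UMI: 42 of 76 for Runx1, 21 of 34 for Cbfb, 8 of 12 for Runx2 and 5 of 8 for Runx3. Runx2 was the most unevenly spread, since its top barcode held 36 of its 59 UMIs. Leukocyte-marker barcodes, which made up 105 of the 1857 barcodes, carried 85.7% of Runx1, 91.5% of Runx2 and 76.9% of Runx3 UMIs. Cbfb was divided differently, with 51.8% of its UMIs in leukocyte-marker and 41.1% in mesothelial-or-collagen barcodes. Whether reads from introns were counted is not stated, so levels are compared only within a gene. Supt3, on the opposite strand over part of Runx2, gave 32 UMIs of its own, and Runx2os1 gave 2. Whether counting used the strand is not stated either, so reads of these overlapping genes cannot be told apart from those of Runx2.

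**Figure D1:**
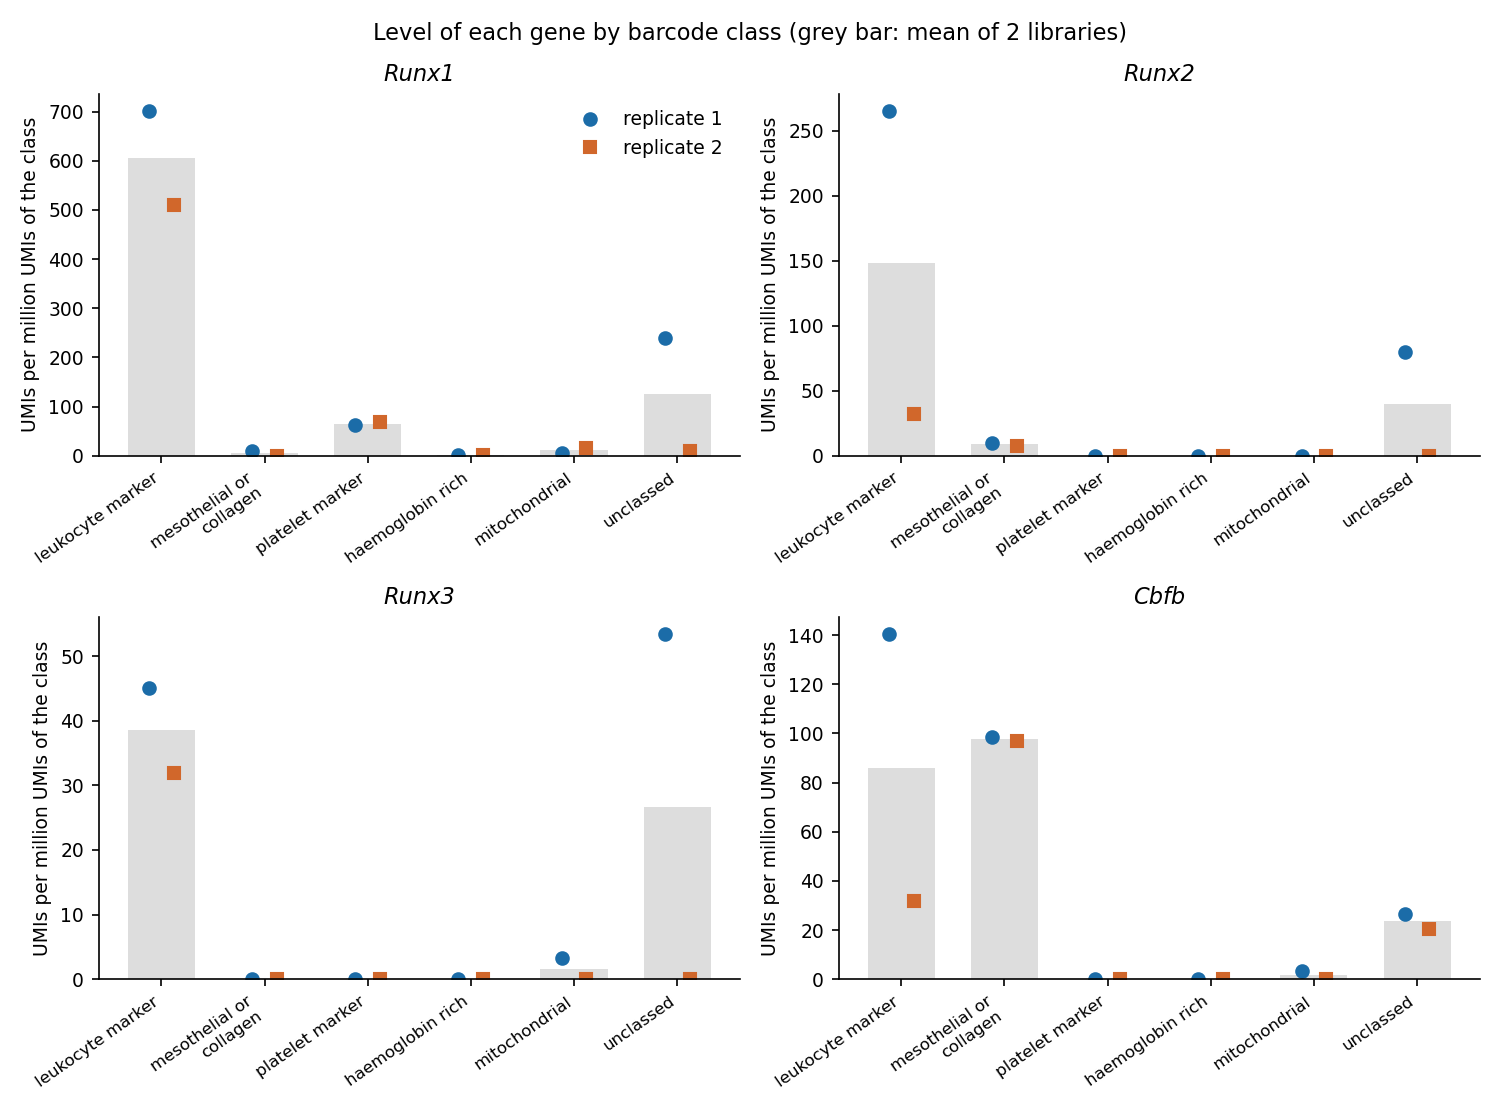
Level of Runx1, Runx2, Runx3 and Cbfb in 6 classes of barcodes, as UMIs per 1000000 UMIs of the class, with 1 point per library and a grey bar at the mean of both. Runx1 stands at 702 and 510 in leukocyte-marker barcodes, and Cbfb averages 86.1 there and 97.7 in mesothelial-or-collagen barcodes.

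Runx1 was found mainly in leukocyte-marker barcodes. Its level, in UMIs per 1000000 UMIs of the class (CPM), was 702 in replicate 1 and 510 in replicate 2 among leukocyte-marker barcodes. In mesothelial-or-collagen barcodes it was 9.83 and 0, from 1 UMI in all. The class ranges did not overlap, with means of 606 ± 135 and 4.92 ± 6.95 CPM (SD, n = 2 libraries). Without leukocyte-marker barcodes that lack Ptprc, the leukocyte values were 740 and 1161 CPM, so the order of the libraries turned while both stayed above the contrast class. A Runx1 UMI was present in 52 of 89 leukocyte-marker barcodes of replicate 1 (58.4%, 95% Clopper-Pearson interval 47.5 to 68.8) and in 4 of 16 of replicate 2 (25%, 7.27 to 52.4). These intervals, like all counting intervals below, cover counting error only. Thinned to 500 UMIs per barcode, a depth that every barcode reached, the shares were 26.9% and 13.7%. In mesothelial-or-collagen barcodes the shares were 1 of 35 (2.86%) and 0 of 31, which allows a share of up to 9.68%. Such limits, drawn from 3 counts, are for barcodes with a UMI and not for cells that express the gene.

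Haemoglobin-rich barcodes were a further comparison, and the source of their few Runx1 UMIs was not tested. Among haemoglobin-rich barcodes, 5 of 862 held a Runx1 UMI (0.580%, interval 0.189 to 1.35), at a median depth of 5937 UMIs. The corresponding level was 0.816 ± 0.136 CPM (n = 2) of all UMIs, most of them haemoglobin. Over UMIs other than haemoglobin and mitochondrial ones it was 7.98 and 6.75 CPM, against 848 and 777 in leukocyte-marker and 11.8 and 0 in mesothelial-or-collagen barcodes. In haemoglobin-rich barcodes Runx2, Runx3 and Cbfb had 0 UMIs, which allows a share of up to 0.348% for each. Platelet-marker barcodes had Runx1 at 61.8 and 68.9 CPM, from 4 single UMIs in 55 barcodes, and 0 UMIs of the other members. Runx1 thus stood higher in platelet-marker than in haemoglobin-rich barcodes in both libraries, on very few molecules. Unclassed barcodes of replicate 1 had Runx1 at 240 CPM and those of replicate 2 at 10.2 CPM. Of the 19 Runx1 carriers outside the leukocyte, mesothelial and collagen classes, 4 also held Ptprc.

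Among leukocyte-marker barcodes, those led by the B cell list (44 in replicate 1 and 7 in replicate 2) held 100 of the 182 Runx1 UMIs. Their Runx1 level was 1039 CPM in replicate 1 and 1030 CPM in replicate 2, a mean of 1034 ± 6.25 (n = 2). The libraries were thus close in B cell-list barcodes, although the level over all leukocyte-marker barcodes differed between them. Runx1 was found in 29 of 44 (65.9%, 50.1 to 79.5) and 4 of 7 (57.1%, 18.4 to 90.1) of these barcodes. Of the 51, 14 held 1 Runx1 UMI, 9 held 2 to 4, 10 held 5 or more and 18 held none. Carriers were deeper, with a median of 1744 UMIs against 1150 in barcodes without a Runx1 UMI. Split at the set's median depth of 1508 UMIs, 20 of 26 deeper and 13 of 25 shallower barcodes carried it, at 1091 and 883 CPM. The lower share in shallow barcodes therefore went with a smaller difference in level. All 12 B cell markers were found in this set, led by Ebf1, the transcription factor that sets B cell identity, with 584 UMIs. Of the 9 endothelial markers, 2 were found there, nearly all as Pecam1 (60 UMIs), while Cdh5, Kdr and Tie1 were at 0.

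Barcodes led by the monocyte or macrophage list (27 and 4) gave Runx1 at 705 CPM in replicate 1, with 43 UMIs in 17 of 27 barcodes (63.0%, 42.4 to 80.6). In replicate 2 the 4 such barcodes had 0 UMIs, with a detection floor of 346 CPM (3 UMIs over their total) and 0 Ptprc UMIs. That floor lies below the level of replicate 1. The 4 barcodes had a median of 47.3% mitochondrial UMIs, and 2 of them held at least 3 endothelial UMIs. The 4 together held 14, led by Flt1 with 6. The 27 barcodes of replicate 1 held 0 endothelial UMIs. The part of these signs in the missing Runx1 was not tested. The 6 barcodes led by the T cell list, all in replicate 1, had 9 Runx1 UMIs in 3 of them. Neutrophil-list barcodes had 2 Runx1 UMIs in 9 barcodes, 80.6 CPM over both libraries.

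Single markers were then used in place of lists. Of 58 barcodes with an Ebf1 UMI, 33 carried Runx1 (29 of 45 in replicate 1 and 4 of 13 in replicate 2). Of 21 with Csf1r, the receptor that sustains monocytes and macrophages, 10 carried it, all in replicate 1. Of those 21, 14 were leukocyte-marker barcodes, 13 of them in replicate 1, and 5 were mesothelial-or-collagen barcodes, 3 of the 4 in replicate 2 among them. The 5 held no Runx1, and 9 of the 14 did. Of the 76 Runx1 carriers, 33 had Ebf1, 10 had Csf1r, 1 had Cd3e, 1 had Siglech and 31 had none of the 4. No carrier held both Ebf1 and Csf1r UMIs (0 of 76). At least 2 UMIs from each of 2 or more leukocyte lists were seen in 10 Runx1 carriers, and 7 carriers had over 10% haemoglobin UMIs. The part of mixed droplets in the counts was not tested.

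**Figure D2:**
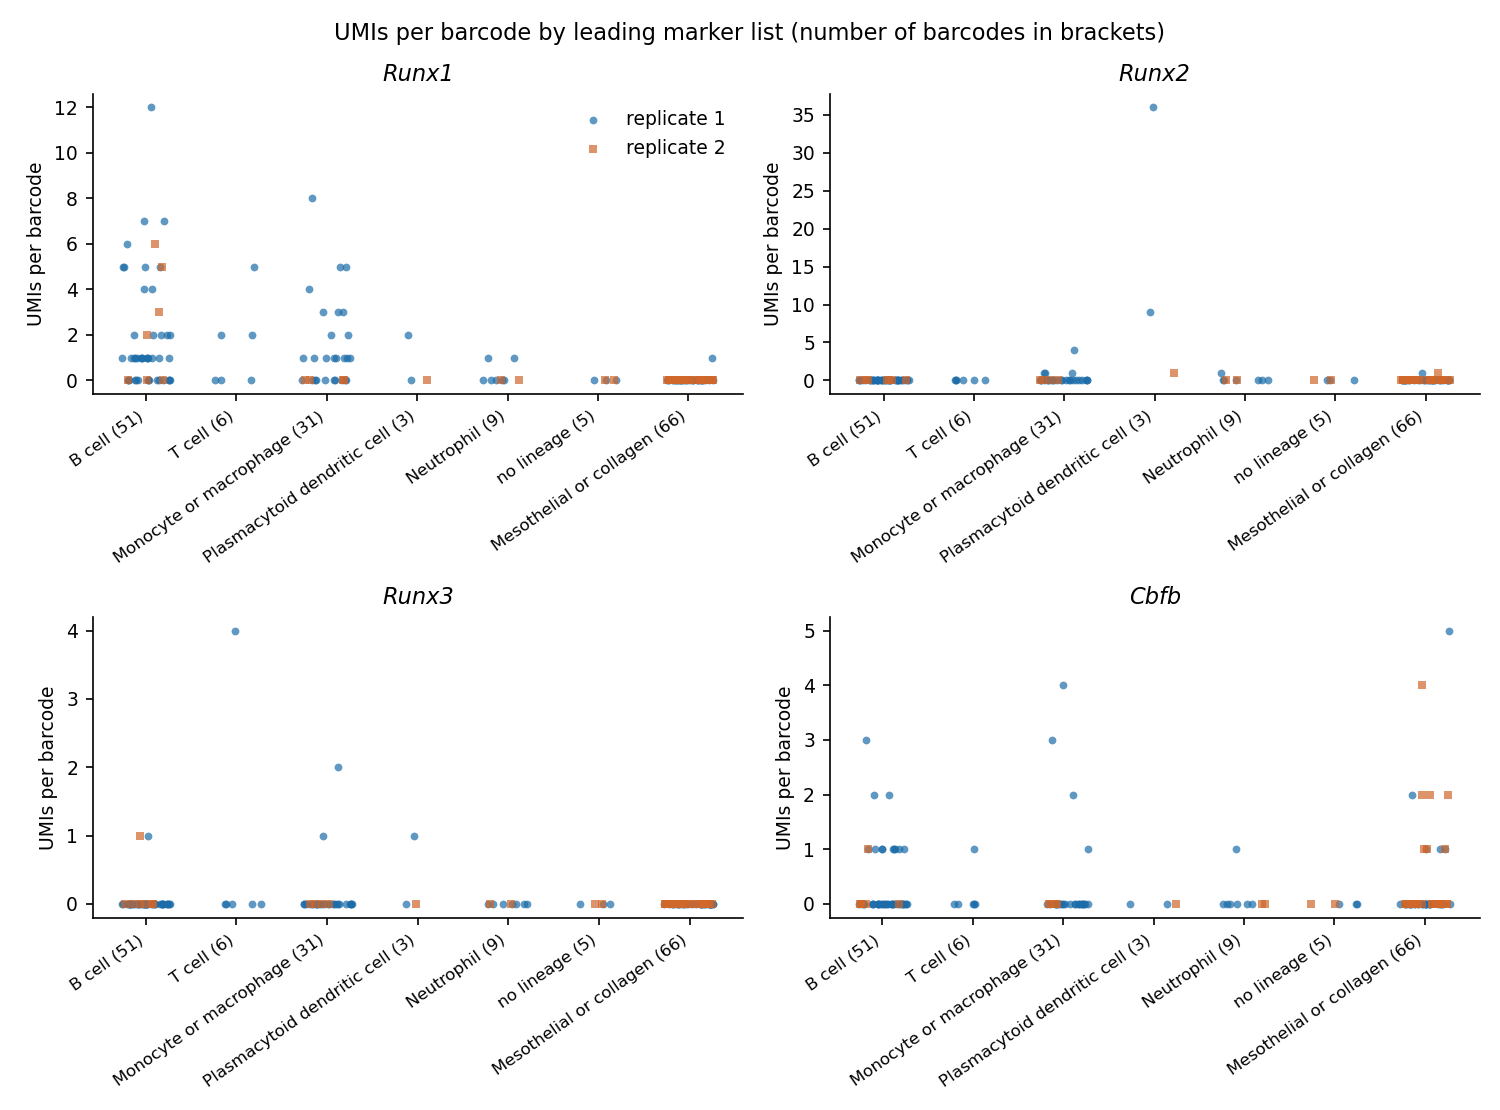
UMIs of each gene in each barcode, by the marker list that leads the barcode (number of barcodes in brackets), with a small sideways spread so that points can be seen. Runx1 reaches 12 UMIs in a B cell-list barcode, Runx2 reaches 36 UMIs in a plasmacytoid dendritic cell-list barcode, and Cbfb reaches 5 UMIs in a mesothelial-or-collagen barcode.

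Runx2, the bone regulator, was concentrated in 3 barcodes led by the plasmacytoid dendritic cell list. They held 36, 9 and 1 Runx2 UMIs, together 46 of the 59. The first lay in replicate 1 with 7633 UMIs in all, 7.26% of them mitochondrial, 39 Siglech UMIs and 49 Ptprc UMIs. The second, also in replicate 1, had 1518 UMIs, 44.0% of them mitochondrial, 1 Siglech UMI and 2 Ptprc UMIs. The third, in replicate 2, had 1611 UMIs, 21.8% of them mitochondrial, 2 Siglech UMIs and 3 Ptprc UMIs. These were the 3 barcodes of the series with a Siglech UMI, and each of them carried Runx2. Siglech is on the list that leads them, whereas Runx2 is on no list.
Of the 7 listed markers, 5 were found in them (Siglech 42 UMIs, Pacsin1 15, Ccr9 5, Cd300c 4 and Smim5 1), while Cox6a2 and Klk1 were at 0. Their Runx2 level was 4918 CPM in replicate 1 and 621 CPM in replicate 2. The deepest barcode also held 15 UMIs of the monocyte or macrophage list and 6 of the B cell list, so it stands with the carriers that have several lists.

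Outside these 3, Runx2 was sparse. Monocyte or macrophage-list barcodes held 7 UMIs in 4 of 27 barcodes of replicate 1 (14.8%, 4.19 to 33.7) and 0 in 4 barcodes of replicate 2. A neutrophil-list barcode held 1 UMI, and 2 unclassed barcodes held 3 in all. None of the 51 B cell-list barcodes had a Runx2 UMI, which allows a share of up to 5.88%, and the 6 T cell-list barcodes had 0. Likewise 0 of 58 Ebf1 carriers had it, a limit of 5.17%, whereas 3 of 21 Csf1r carriers did. In mesothelial-or-collagen barcodes, 2 single UMIs were found, 1 in each library, in barcodes of 4575 and 7152 UMIs. Those 2 barcodes held 17 and 48 UMIs of the mesothelial and collagen lists, and 0 Ptprc UMIs. The Runx2 share there was 2 of 66 (3.03%, 0.369 to 10.5), beside 0 of 862 among haemoglobin-rich barcodes. In the latter, haemoglobin took a median of 87.0% (replicate 1) and 88.3% (replicate 2) of UMIs, so their depth for other genes is much less than their total.

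Per class, Runx2 stood at 266 CPM in replicate 1 and 31.9 CPM in replicate 2 among leukocyte-marker barcodes, and at 9.83 and 7.46 CPM among mesothelial-or-collagen ones. The leukocyte values lay above the others in each library, but that of replicate 2 rested on 1 UMI. With barcodes of at least 100 genes and at most 20% mitochondrial UMIs, the order in replicate 2 turned, with 0 CPM in leukocyte-marker and 9.68 CPM in mesothelial-or-collagen barcodes. The mean of 149 ± 165 CPM (n = 2) fell to 60.2 ± 40.1 CPM without the barcode of 36 UMIs. Pooled over libraries, the ratio of leukocyte-marker to mesothelial-or-collagen level was 27.6 (counting interval 7.27 to 233). Without that barcode it was 9.50 (2.27 to 84.4). A single droplet thus set most of the level. In replicate 2 alone the ratio was 4.28 with an interval of 0.0545 to 336, so the difference rests on replicate 1.

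Runx3 was the least often found member. Its 8 carriers held 4, 2, 2, 1, 1, 1, 1 and 1 UMIs, and 7 of them were in replicate 1. The barcode with 4 UMIs was led by the T cell list with 79 UMIs of that list, had 7933 UMIs in all and carried Cd3e, a chain of the T cell receptor complex. The other Cd3e carrier held 5 Runx1 UMIs and no Runx3, so the pair of Cd3e carriers had a different Runx gene each. Monocyte or macrophage-list barcodes held 3 Runx3 UMIs in 2 barcodes, B cell-list barcodes 2 UMIs in 2, and the deepest Siglech carrier 1 UMI. The natural killer list led no barcode, and 6 of its 8 genes were at 0 in leukocyte-marker barcodes. Runx3 stood at 45.1 and 31.9 CPM in leukocyte-marker barcodes, a mean of 38.5 ± 9.33 (n = 2). In mesothelial-or-collagen barcodes it had 0 UMIs in both libraries, with a floor of 12.7 CPM over the class and a share limit of 4.55%. The leukocyte-marker level, from 10 UMIs, was 3.40-fold above the floor when pooled, 1.53-fold in replicate 1 and 1.43-fold in replicate 2. Counting intervals of the ratio, which do not use the floor, began at 2.29 pooled, 1.01 in replicate 1 and 0.110 in replicate 2. Replicate 2, with 1 UMI, does not show a difference on its own.

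Cbfb, the common partner, was found on both sides. In leukocyte-marker barcodes its level was 140 CPM in replicate 1 and 31.9 CPM in replicate 2, the latter from 1 UMI. In mesothelial-or-collagen barcodes it was 98.3 and 97.0 CPM, from 10 and 13 UMIs. The ranges overlapped, with means of 86.1 ± 76.7 and 97.7 ± 0.953 CPM (n = 2). Cbfb carriers were 18 of 89 (20.2%, 12.4 to 30.1) and 1 of 16 (6.25%, 0.158 to 30.2) of the leukocyte-marker barcodes. They were 5 of 35 (14.3%, 4.81 to 30.3) and 7 of 31 (22.6%, 9.59 to 41.1) of the mesothelial-or-collagen barcodes. At 500 UMIs per barcode the shares were 5.77% and 4.14% against 2.33% and 3.33%. Detection followed depth in the second class: its 12 Cbfb carriers had a median of 5989.5 UMIs and the others 1781.5. All 23 of its Cbfb UMIs lay in the 33 barcodes at or above the median depth of 2160 UMIs. Below it, 0 of 33 barcodes had one.

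Cbfb reached 13 of 51 B cell-list barcodes with 17 UMIs and 4 of 31 monocyte or macrophage-list barcodes with 10 UMIs. Its level in B cell-list barcodes was 198 CPM in replicate 1 and 64.4 CPM in replicate 2, again 1 UMI in the latter. The 3 Siglech carriers had 0 Cbfb UMIs, with a floor of 279 CPM over their total. Their few molecules therefore leave the Cbfb level of these Runx2-rich barcodes largely undetermined.

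**Figure D3:**
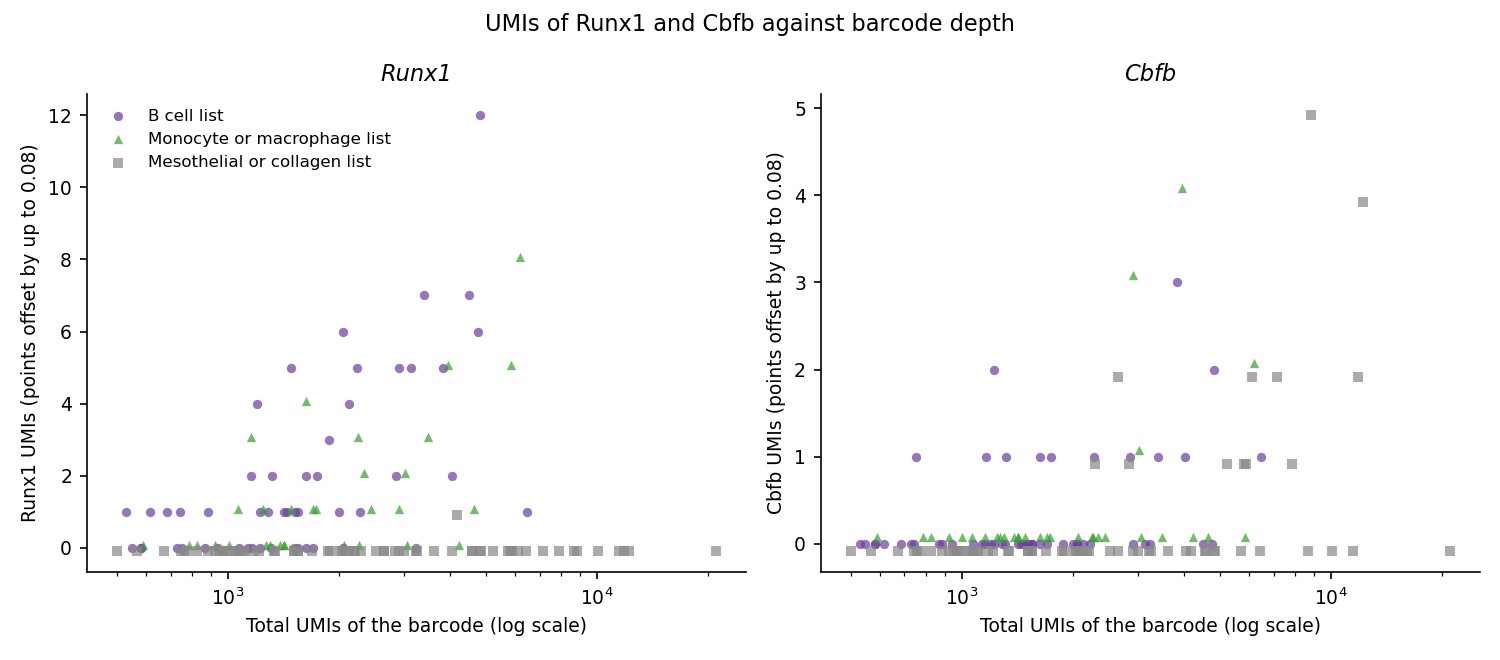
UMIs of Runx1 (left) and Cbfb (right) in each barcode against its total UMIs on a log scale, for barcodes led by the B cell list, the monocyte or macrophage list and the mesothelial or collagen lists. Runx1 is at 0 in all but 1 of the 66 mesothelial-or-collagen barcodes at every depth, while Cbfb appears there only at or above the median of 2160 UMIs.

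A Runx protein works with Cbfb, so the barcodes that showed both transcripts were counted. Of the 85 barcodes with any Runx UMI, 16 also held Cbfb, and 69 did not. Of the 34 Cbfb carriers, 18 held no Runx UMI. The median depth was 3212.5 UMIs in barcodes with both, 1632 with a Runx UMI alone and 3294 with Cbfb alone. Both kinds of transcript were thus seen together in the deeper Runx carriers. In leukocyte-marker barcodes 15 of 19 Cbfb carriers also held a Runx UMI, in each case Runx1. In mesothelial-or-collagen barcodes it was 1 of 12, with Runx2. Over all barcodes of each class, a Runx UMI was present in 61 of 105 leukocyte-marker and 3 of 66 mesothelial-or-collagen ones. The classes thus differ in the same direction without regard to Cbfb. The split among Cbfb carriers describes sparse counts and was not tested. Between the Runx genes, 7 barcodes held Runx1 and Runx2, 4 held Runx1 and Runx3, and 1 held Runx2 and Runx3.

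The leukocyte-marker and mesothelial-or-collagen classes were compared over class sums of each library with edgeR's quasi-likelihood test. Of 2315 genes tested, 38.5% passed an adjusted p of 0.05, 14.7% as higher and 23.8% as lower in leukocyte-marker barcodes. Of the 4 members, Runx1 and Cbfb passed the filter on low counts, and 1 of these 2 was called. Runx1 was higher in leukocyte-marker barcodes by a fitted log2 fold change of 6.71 (SE 0.91, edgeR adjusted p = 2.06e-09), in 2 of 2 libraries. It passed the filter through its leukocyte counts, with 1 UMI on the other side. Runx1 thus had to differ, so its p-value supports nothing, and the fitted size depends on the tool's prior count. The ratio of pooled counts was 159 with a counting interval of 28.2 to 6330. In replicate 1 the ratio was 71.3 (12.6 to 2837), and in replicate 2 the level was 22.8-fold above the floor. The counting interval of the replicate 2 ratio began at 16.5.

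Cbfb had a fitted log2 fold change of -0.01 (SE 0.74, edgeR adjusted p = 0.996). Its 95% interval, -1.47 to 1.46, leaves room for a level from 0.360 to 2.76 times that of the other class, so equality was not shown. The sign of its change differed between libraries, with log2 differences of 0.19 in replicate 1 and -1.24 in replicate 2. It also turned to 0.18 when only total UMIs were used for scaling. Without the filter on low counts, Runx2 had a log2 fold change of 4.13 (SE 1.12, edgeR adjusted p = 0.00598) and Runx3 5.24 (SE 2.04, edgeR adjusted p = 0.107). Without the barcode richest in Runx2, the Runx2 value was 2.94 (SE 1.18, edgeR adjusted p = 0.121), which no longer passed. With the replicate block in the unfiltered fit it was 3.58 (SE 1.44, edgeR adjusted p = 0.205), which did not pass either. The fit has 2 residual degrees of freedom, and its spread is almost wholly that shared across genes.

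Signs of other cells and of RNA quality also differed between the classes. Endothelial markers summed to 376 and 606 CPM in leukocyte-marker barcodes and to 39.3 and 37.3 CPM in mesothelial-or-collagen ones. In replicate 1, 74 of these 75 leukocyte-marker UMIs were Pecam1, which blood cells also express, and 1 was Flt1. In replicate 2, 8 of 19 were Pecam1 and 11 were Flt1, Egfl7, Tek, Emcn or Ptprb, all 11 of them in barcodes led by the monocyte or macrophage list. Cdh5, Kdr and Tie1 were at 0 in both libraries. The part of these signals in the class difference was not tested. Platelet markers summed to 55.1 and 415 CPM against 98.3 and 209 CPM, with 6 and 7 of 10 markers found and Gp1bb at 0 in both. Over 20% mitochondrial UMIs were found in 33 of 89 and 9 of 16 leukocyte-marker barcodes, and in 17 of 35 and 15 of 31 of the others. With barcodes above that level removed, together with those under 100 genes, Runx1 kept a log2 fold change of 6.50 (SE 0.98, edgeR adjusted p = 4.98e-06). Runx1 passed the filter through its leukocyte counts there too, so that p-value supports nothing.

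Genes of Runx biology outside the family were described by 3 lists. The partners and cofactors list has 43 genes, 42 of them with a row in the files and 41 with at least 1 UMI. Of its 13 tested genes, 3 were higher and 2 lower in leukocyte-marker barcodes, against the 14.7% and 23.8% of all genes. Fli1, Runx1t1 and Wwtr1 below, like Runx1 above and Cd84 of the blood list, had at most 1 UMI in a class. They passed the filter through the other class. They had to differ, so their p-values and the counts that include them support nothing. The median log2 fold change of the list was 0.04, and that of all genes was -0.11. The genes that rose were Fli1 and Ets1, ETS factors that bind DNA beside Runx1, and Tle4, a Groucho-type corepressor that Runx proteins recruit.

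Fli1 gave 106 and 22 UMIs in leukocyte-marker barcodes and 0 and 1 in the others. Its pooled ratio was 131 (counting interval 23.0 to 5201; edgeR adjusted p = 2.53e-09). Ets1 gave 135 and 11 UMIs against 2 and 5, with a log2 fold change of 3.97 (SE 0.69, edgeR adjusted p = 9.10e-07). Tle4 gave 84 and 9 against 9 and 9 (2.06, SE 0.61, edgeR adjusted p = 0.00383). Ets1 and Tle4 also needed their leukocyte-marker sums to pass the filter on low counts, so these p-values support nothing either. All 3 were higher in leukocyte-marker barcodes in both libraries, but Tle4 did not pass with DESeq2 (adjusted p = 0.120) or without the filter on low counts (adjusted p = 0.0980; 0.401 with the replicate block as well).

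The genes that fell were Runx1t1 and Wwtr1. Runx1t1, the corepressor known as ETO that is fused to RUNX1 in a form of leukaemia, gave 12 UMIs in each library's mesothelial-or-collagen barcodes and 0 in leukocyte-marker ones. Its level was 7.84-fold higher in the former against the floor of 3 UMIs over the class (edgeR adjusted p = 1.23e-06). The counting interval of the leukocyte-marker to mesothelial-or-collagen ratio reached up to 0.170. With at most 20% mitochondrial UMIs and at least 100 genes it no longer passed the filter on counts. Wwtr1, the Hippo pathway coactivator TAZ that works with Runx2 in bone, gave 17 and 30 UMIs against 0 and 1. The pooled ratio was 46.0 in favour of mesothelial-or-collagen barcodes (counting interval 7.87 to 1857; edgeR adjusted p = 1.15e-05). Yap1, the other Hippo coactivator, had 17 UMIs there and 0 in leukocyte-marker barcodes, too few to be tested. Yap1, Lef1 and Spi1 were singled out after their values were seen. Lef1, a lymphoid factor that cooperates with Runx1, had all 70 of its UMIs in leukocyte-marker barcodes, and Spi1, the myeloid and B cell factor PU.1, had 28 there and 0 in the contrast class.

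**Figure D4:**
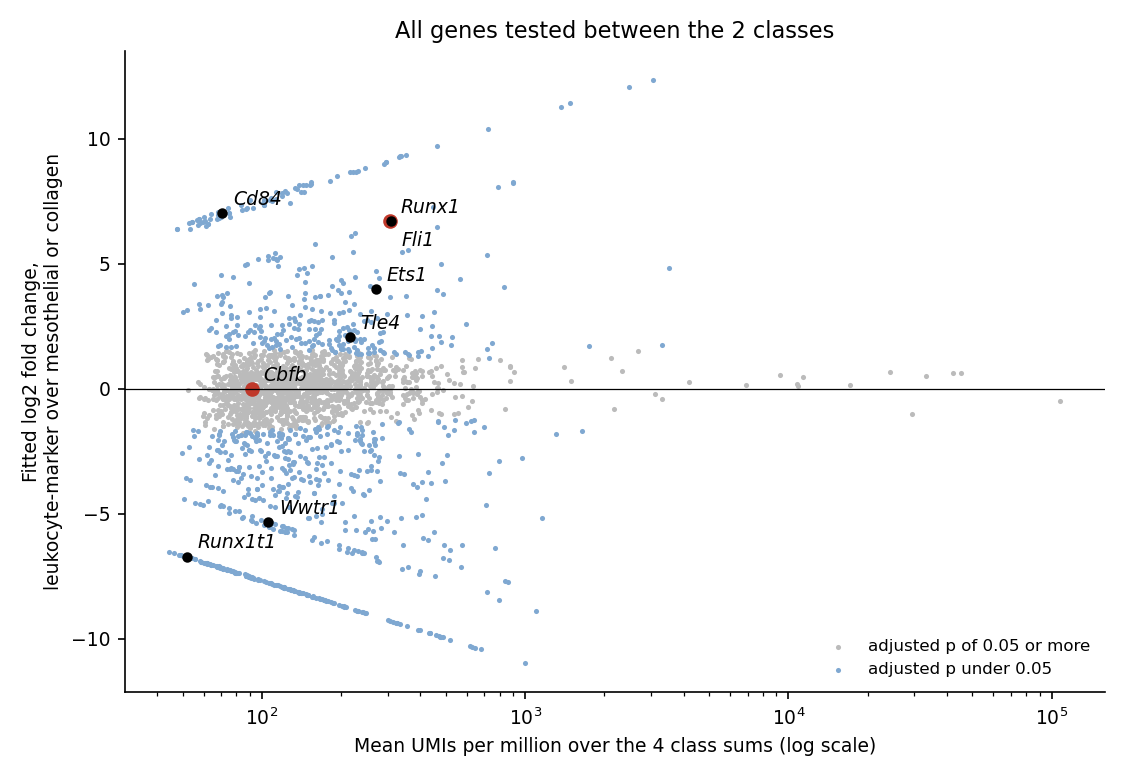
Fitted log2 fold change between leukocyte-marker and mesothelial-or-collagen barcodes against mean level (log scale) for the 2315 genes tested, with Runx1 and Cbfb in red and called list genes in black. Runx1 lies at 6.71, where the point of Fli1 covers most of it, Cbfb lies at -0.01, and Runx1t1 and Wwtr1 lie at -6.72 and -5.33.

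The bone and cartilage list holds 18 targets or partners of Runx2, and 12 of them had 0 UMIs in the whole series. These were Sp7, Bglap, Bglap2, Spp1, Ibsp, Col10a1, Mmp13, Ihh, Dlx5, Dlx3, Msx2 and Tnfsf11, which include the osteoblast factor osterix, osteocalcin, osteopontin and bone sialoprotein. They were thus not detected among the 7296610 UMIs of both libraries. Genes at 0 are common here: of all 32285 genes, 14375 had at least 1 UMI in the 2 compared classes. The share of all genes at 0 in the whole series was not computed, so the count of 12 is not a result about this list. Atf4, a general stress-response factor that also partners Runx2, alone passed the filter, with 16 and 3 UMIs in leukocyte-marker barcodes and 7 and 25 in the others. Its log2 fold change of -0.85 (SE 0.67, edgeR adjusted p = 0.353) did not pass, so 0 genes of that list were called. Alpl, the phosphatase of mineralising cells and of neutrophils, had 0 UMIs in both compared classes. Its 10 UMIs in the series lay in haemoglobin-rich (8) and mitochondrial (2) barcodes.

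The list of blood targets has 18 genes, 9 of them with at least 1 UMI and all 9 found in leukocyte-marker barcodes. That count too stands beside 14375 of 32285 genes with a UMI in the 2 compared classes. Of the 9 listed genes, Zbtb7b was the single gene also found in mesothelial-or-collagen barcodes. The shares of all genes found in leukocyte-marker barcodes, or in these and not in the contrast class, were not computed. Neither count is therefore a result about this list. Cd84, a receptor of the SLAM family, was the only gene tested and was called. It gave 31 and 4 UMIs in leukocyte-marker barcodes and 0 in the others, a level 11.9-fold above the floor (edgeR adjusted p = 9.13e-07). The counting interval of its ratio began at 9.18. With a marker minimum of 2 or 5 UMIs it no longer passed the filter on counts. Rag1 and Rag2, the recombinase genes of developing lymphocytes, and Foxp3 of regulatory T cells were among the 9 genes at 0.

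Likeness of carriage was measured with the Jaccard index, the barcodes that carry both genes divided by those that carry either. It was computed over 1857 barcodes and 6490 genes with at least 10 carriers, marker genes left out. For Runx1 the nearest genes were Ptprc (0.479, 56 shared barcodes), Dock2 (0.466, 55), Gm26740 (0.443, 47), Arhgap15 (0.443, 58) and Arhgap26 (0.440, 51). Dock2 encodes an activator of Rac in blood cells. For Runx2 they were Tbc1d8 (0.389), Frmd4a (0.333), Cyth4 (0.273), Tgfbr1 (0.269) and Ptpre (0.261), each sharing 6 or 7 of its 12 carriers. For Cbfb they were Wac (0.317), Agfg1 (0.300), Dhx15 (0.298), Uhrf2 (0.295) and Kmt2a (0.292). Kmt2a encodes a histone methyltransferase, and Dhx15 an RNA helicase of splicing. All these values share depth and library as a common source. Runx3, with 8 carriers, was below the minimum of 10.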

How the data were processed

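Deposited were UMI counts for each gene in each barcode, not normalized, made by Cell Ranger 7.1.0 per the file headers. The submitters' processing notes also name Seurat 5 and mm10, without a role. Barcode calling, intronic reads and removal of doublets are not given in the sources used here. All barcodes were kept (minimum 500 UMIs). The members and lists were chosen with earlier results of these data known.

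A class needs at least 3 marker UMIs from at least 2 genes, and the larger of the leukocyte and the mesothelial plus collagen sums decides between them. Of the rest, the platelet list, then at least 40% haemoglobin, then over 50% mitochondrial UMIs, define classes. The lineage is the leukocyte list with most UMIs. Class sums were tested with edgeR 4.0.16 in R 4.3.3 (filterByExpr, TMM, Benjamini-Hochberg) without a replicate block, and with DESeq2 1.42.0 as an alternative. The script was tested on simulated data. Standard errors are the log2 fold change over the root of F. Sums of 1 library share their blood by construction, which is where the pairing comes from; the log2 differences between libraries in the 2 classes correlated at 0.0437 over 2315 genes. With the replicate block 272 genes were higher and 483 lower. Intervals and counts used Python 3.11.15 and scipy 1.17.1.

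Named are the 4 members, the 4 markers of the rule and Ptprc, list genes past the threshold with 1 sign in both libraries (at most 8 per direction), and the 5 nearest genes of members with at least 10 carriers. Marker genes beside a result, Atf4, Yap1, Lef1, Spi1, Alpl, Zbtb7b, Rag1, Rag2, Foxp3 and the bone genes at 0 fall outside this rule and were chosen after their values were seen.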

Additional observations from a re-analysis of the deposited data

How the results depend on the processing

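Runx1 stayed higher and past the threshold in each of the 12 other fits run, with adjusted p from 2.45e-11 (edgeR) to 0.000359 (DESeq2). Where the filter on low counts was used, Runx1 had to differ, so those p-values support nothing. Cbfb passed in none of the 12. With the replicate block the log2 fold changes were 6.67 for Runx1 (edgeR adjusted p = 2.60e-08) and -0.22 for Cbfb (edgeR adjusted p = 0.890), and the block changed no call named here that was made with the filter on low counts. Without the filter and with the block, a choice made after seeing the data, 160 genes were higher and 352 lower, and Runx2 and Tle4 did not pass. With 1 library left out, and no test, Runx1 ran from 4.53 to 5.05 and Cbfb from -1.24 to 0.19. DESeq2 called 179 genes higher where edgeR called 341; the cause was not tested. Scaling by total UMIs alone moved the median of all tested genes (log2) from -0.11 to 0.07, and DESeq2-type size factors moved it to -0.23. Per 1000000 UMIs other than haemoglobin and mitochondrial ones, levels rose by construction to 813 CPM (Runx1) and 51.6 (Runx3) in leukocyte-marker barcodes, and to 10.3 (Runx2) and 117 (Cbfb) in mesothelial-or-collagen ones. With at least 100 genes and at most 20% mitochondrial UMIs these 4 were 845, 57.6, 11.6 and 109 CPM. With a marker minimum of 2 UMIs, Runx1 was 467 CPM in leukocyte-marker and Cbfb 87.5 in mesothelial-or-collagen barcodes, and with 5 UMIs the latter was 102. Without leukocyte-marker barcodes lacking Ptprc, a choice made after seeing the data like that of the richest Runx2 barcode, Runx1 was 951 and Runx3 61.3 CPM. Precision was limited by the 31344 leukocyte-marker UMIs of replicate 2, where 1 UMI is 31.9 CPM.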
